A study of Homo sapiens with 8 samples.

Results

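Antisense non-coding RNAs are the RNAs named here by a gene symbol that ends in -AS, with or without a number. They were chosen as the non-coding RefSeq transcripts (accessions that begin with NR_) with such a symbol in the authors' deposited tables of transcript stability. The rule found 335 antisense genes with 416 transcripts among 13355 genes in all, and 267 of these genes had at least 1 transcript listed in both tables. The study used SW480, an established human colorectal adenocarcinoma line, which the series text calls a breast cancer line. The cells stably expressed a control shRNA (shControl) or an shRNA against RBMS1 (shRBMS1), an RNA-binding protein of A- and U-rich RNA. Each kind of cell was left without agent (0 h) or exposed for 9 h to alpha-amanitin, a toxin that blocks RNA polymerase II, at 10 µg/mL. Each of these 4 groups held 2 libraries, so the series held 8, and the labels do not say whether the 2 came from separate cultures. The sample labels name 1 shRNA clone against RBMS1 and the series text names 2, so that the clones behind the knockdown libraries cannot be told from these sources.

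Each transcript carries a single log2 fold change per cell population, 9 h over 0 h, with the libraries of a group already combined. The log base and the direction of the ratio are inferred, since the column header gives only logFC. A value below 0 is a transcript that made up less of the sequenced RNA after transcription was blocked, and a value above 0 one that made up more. Where 2 values follow a gene's name, the first is that of control cells and the second that of knockdown cells. No value of a single library, count or p-value was used, so read depth and the spread between replicates are unknown, no difference below has a test, and all values are descriptions. The values for RBMS1 are changes over time and not levels, so they do not check the knockdown. In control cells 7 of 9 colorectal epithelial markers were listed and in knockdown cells 5 were, with LGALS4 and CEACAM5 in neither table, and of 16 markers of other cell types only CD68 and LYZ were listed.

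An antisense RNA is transcribed from the strand opposite a protein-coding gene and takes its name from that gene, called its coding partner here. Some begin at a shared promoter and run away from the partner, some overlap its first exons, some run into its far end, and some lie wholly inside it. A few have been studied in detail as regulators of their partner, as decoys for microRNAs or as scaffolds for chromatin proteins, whereas most have no known function. Antisense and coding transcripts of a locus can share sequence on opposite strands. Whether the reads were counted by strand is not given in the sources used here, so where the spans overlap, reads of the 2 genes may not be separable.

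As a group, antisense RNAs stood above the median of all genes after 9 h without transcription. In control cells their median log2 fold change was 0.17, with quartiles of -0.29 and 0.66, over 314 listed genes. A value of -1 or below, a loss of 2-fold or more, was listed for 18 of the 314 genes (5.73%), where 10.7% of all genes reached it. A value of 1 or above was listed for 51 (16.2%), against 4.85% of all genes. In knockdown cells the median was 0.21, with quartiles of -0.27 and 0.75, over 290 genes. There 17 genes (5.86%) lay at -1 or below, against 9.5% of all genes, and 59 (20.3%) at 1 or above, against 5.26%. The median of all genes was -0.07 in control cells and -0.05 in knockdown cells.

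Non-coding genes of other kinds had similar values. The other non-coding genes, which include small nucleolar RNAs, pseudogenes and other long non-coding RNAs, had medians of 0.21 in both cell populations. Of these genes 8.18% lay at -1 or below in control cells and 12.4% at 1 or above, and in knockdown cells the shares were 7.78% and 14.5%. Long intergenic RNAs with LINC symbols had medians of 0.20 and 0.40, and divergent transcripts with -DT symbols 0.14 and 0.16. Coding genes had medians of -0.09 and -0.07.

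**Figure D1:**
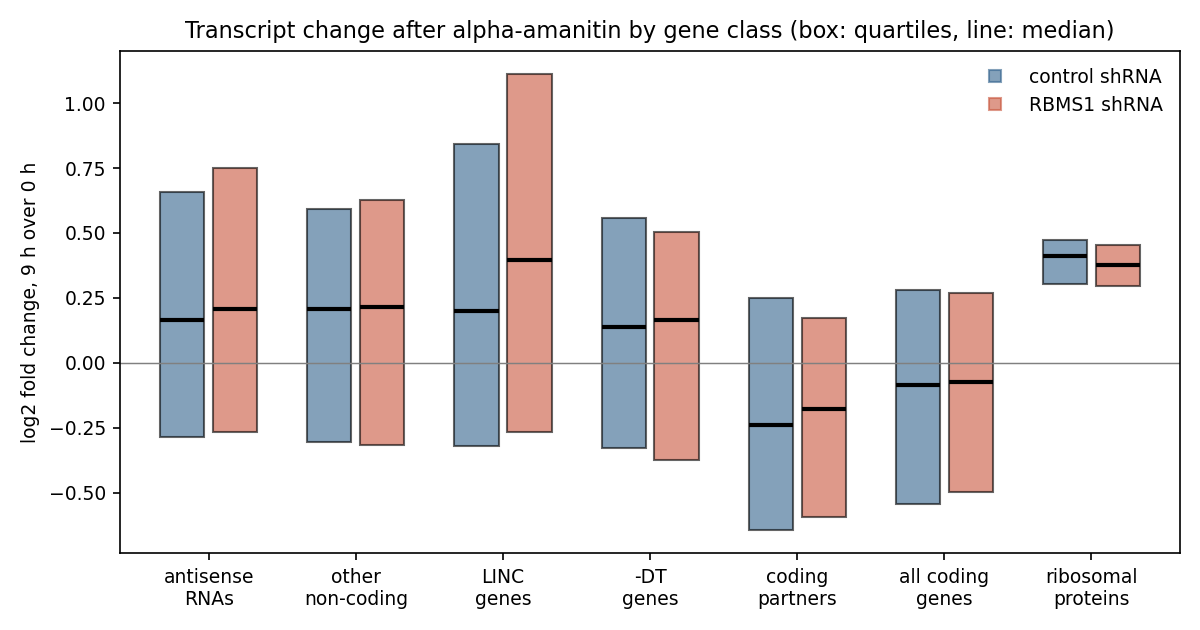
Log2 fold change, 9 h over 0 h of alpha-amanitin, for 7 gene classes (x axis) in control cells (blue) and RBMS1 knockdown cells (red), with boxes from the lower to the upper quartile and a line at the median. The antisense boxes have medians of 0.17 and 0.21 and sit beside those of other non-coding genes, while the coding genes have medians of -0.09 and -0.07.

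How the libraries were scaled to each other is not stated, and the sign of these values depends on it. Messenger RNAs of cytosolic ribosomal proteins, known for long lives, had medians of 0.41 in control cells and 0.38 in knockdown cells. Set relative to those mRNAs, all values move down by these amounts and the antisense medians become -0.25 and -0.17, with 45 genes at -1 or below in control cells and 30 in knockdown cells. The order of antisense RNAs among other genes does not move with this choice, nor does a difference between 2 genes of the same table.

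The 2 cell populations gave similar values for most antisense RNAs. Over the 267 genes in both tables, Pearson's r between control and knockdown cells was 0.59 and Spearman's rho 0.57. The rho was 0.57 over 905 other non-coding genes and 0.67 over 11302 coding genes. The points are genes, which share libraries and are not replicates. The sign was the same for 197 antisense genes (73.8%), against 78.2% of all genes. At -1 or below in both tables were 2 of the 267 genes (0.749%), against 5.05% of all genes. At 1 or above in both were 23 genes (8.61%), against 1.33%.

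**Figure D2:**
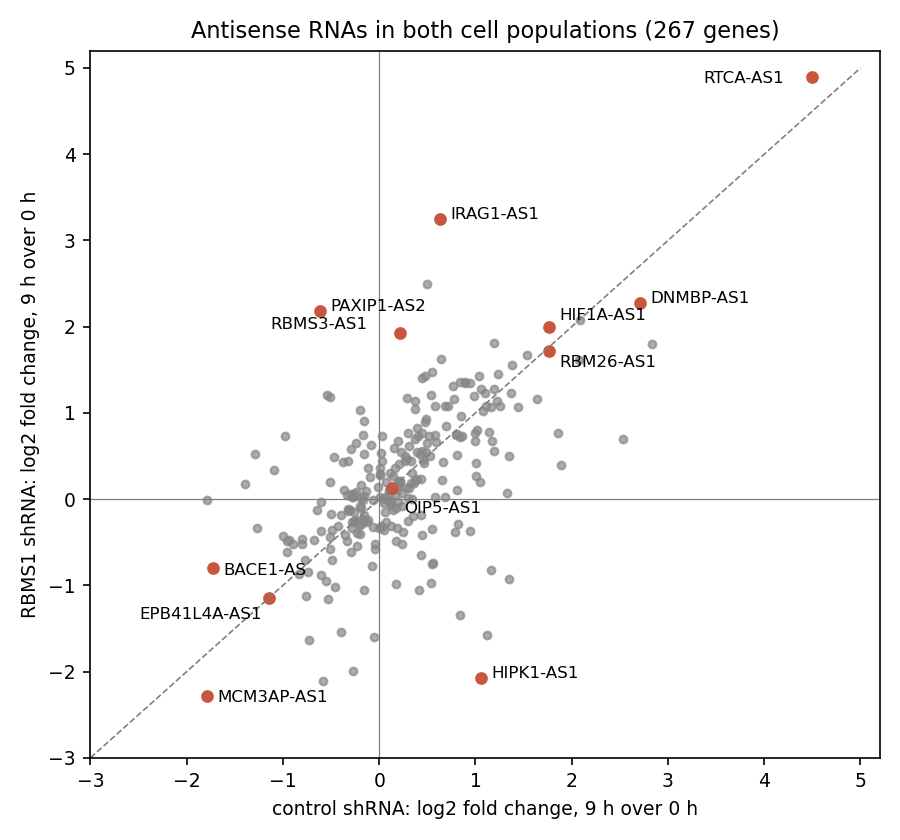
Log2 fold change, 9 h over 0 h, of 267 antisense RNAs in control cells (x axis) and RBMS1 knockdown cells (y axis), 1 point per gene, with the dashed line at equal values and 12 genes named in red. MCM3AP-AS1 and EPB41L4A-AS1 are the 2 genes at -1 or below on both axes, and RTCA-AS1 stands alone at 4.49 and 4.90.

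By transcripts listed in both tables, only MCM3AP-AS1 and EPB41L4A-AS1 had a loss of at least 2-fold in both cell populations. Over all transcripts of each table TSKU-AS1 also reached it. MCM3AP-AS1 (chr21:46229231-46251701, plus strand, GRCh38.p14) runs opposite MCM3AP, which encodes a protein of messenger RNA export. Its shared transcript stood at -1.79 in control cells and -2.28 in knockdown cells per the authors' deposited tables. The knockdown table also lists NR_110565 at -0.10 among the authors' deposited values, and the mean of the 2 there was -1.19. EPB41L4A-AS1 (chr5:112160526-112162501, plus strand) is the host of a small nucleolar RNA and lies inside the span of EPB41L4A. Its values as listed in the authors' deposited tables were -1.15 in control and -1.15 in knockdown cells, so the 2 populations did not differ at 2 decimals.

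The other RNAs with the lowest means over both tables were less alike between the populations. BACE1-AS (chr11:117291346-117292170, plus strand) lies inside BACE1, the gene of the secretase that begins the cleavage of amyloid precursor protein. It stood according to the authors' deposited tables at -1.73 in control cells and -0.80 in knockdown cells. TSKU-AS1, inside the gene of the secreted protein tsukushi, had -0.58 and -2.11 for its shared transcript per the authors' deposited tables, and -1.61 in control cells over all transcripts listed there. COL4A2-AS1, inside a type IV collagen gene, had values of -0.73 and -1.63 as listed in the authors' deposited tables. KCTD21-AS1 and WDR86-AS1 stood at -0.27 and -0.40 in control cells, and at -1.99 and -1.54 in knockdown cells, per the authors' deposited tables. CARD8-AS1, beside the gene of the inflammasome sensor CARD8, was at -0.76 and -1.13 according to the authors' deposited tables. In each of these last 5 genes the value of knockdown cells was the lower one.

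At the other end were RNAs that made up more of the RNA after 9 h in both populations. RTCA-AS1 (chr1:100264742-100266174, minus strand), beside the RNA cyclase gene RTCA, had the highest gene mean, 4.49 in control and 4.90 in knockdown cells. This mean rests on 1 of its 2 transcripts: in the authors' deposited tables NR_110434 stood at 9.05 and 9.61, close to the limit of 10 within which all deposited values lie, and NR_110435 at -0.07 and 0.19. DNMBP-AS1 (chr10:99927205-99958998, plus strand), inside the gene of a scaffold protein that binds dynamin, had values per the authors' deposited tables of 2.71 and 2.28. TMEM132D-AS1 had 2.84 and 1.80 and SLC9A9-AS1 2.08 and 2.07 as listed in the authors' deposited tables, and the coding partners of these 2 are not listed in both tables. ACTR3-AS1, head to head with a subunit gene of the actin-nucleating Arp2/3 complex, stood at 2.08 and 1.61 according to the authors' deposited tables. All of these RNAs were at 1 or above in both populations.

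Among genes listed in 1 table alone, the extremes were wide, and a gene that is listed once cannot be compared between populations. In control cells RGS2-AS1 (-2.24) and FAM83C-AS1 (-1.68) were the lowest and NEBL-AS1 (3.37) and ABCC5-AS1 (2.68) the highest of 45 such genes in the authors' deposited table. In knockdown cells MYOSLID-AS1 (-1.46) and SKAP1-AS2 (-1.18) were the lowest and ST7-AS2 (3.50) and SRRM2-AS1 (3.14) the highest of 21 in the authors' deposited table.

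Of 43 antisense RNAs listed for this report because they have been described by name, 27 were in either table, 24 in both and 16 in neither. Among those in neither were BDNF-AS, WT1-AS and AFAP1-AS1. Of the 24, 17 lay between -1 and 1 in both populations. OIP5-AS1, known as cyrano and for its binding site for a conserved microRNA, had values of 0.13 in control cells and 0.13 in knockdown cells per the authors' deposited tables. PSMA3-AS1, beside a proteasome subunit gene, had means of 0.04 and 0.0038, and TMPO-AS1 had 0.07 and 0.20 as listed in the authors' deposited tables. ZEB1-AS1, head to head with the gene of a repressor of epithelial adhesion genes, stood at -0.19 and 0.02 according to the authors' deposited tables. The mean of PSMA3-AS1 hides transcripts of opposite sign: NR_029434 was at -0.19 and 0.47, and NR_029435 at 0.27 and -0.47, per the authors' deposited tables. OIP5-AS1, TMPO-AS1 and ZEB1-AS1 all lay within 0.20 of 0 in both populations. NNT-AS1, beside the gene of a mitochondrial transhydrogenase, stood at -0.24 in both, THUMPD3-AS1 at 0.33 and 0.44, and SBF2-AS1 at 0.06 and -0.15, per the authors' deposited tables. NOP14-AS1 had -0.29 and 0.06 and TTN-AS1, opposite the titin gene, means of -0.26 and 0.06 per the authors' deposited tables. The order of the populations was less alike for ST7-AS1, at 0.94 and -0.37, and PSMB8-AS1, beside an immunoproteasome gene, at 0.03 and 0.74, per the authors' deposited tables. Of described RNAs in 1 table alone, LOXL1-AS1 (-0.62) and HIF1A-AS2 (0.56) were in the control table and SMAD5-AS1 (1.67) in the knockdown table of the authors' deposited tables.

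The RNAs of the HOX clusters, which hold the homeobox genes of body patterning, spanned a wider range. HOXB-AS3 had a mean of 1.44 in control and 1.07 in knockdown cells over 4 transcripts. HOXB-AS1 had 1.89 and 0.39, and HOXD-AS2 had 0.40 and 0.55 per the authors' deposited tables. HOXA-AS2 stood at -0.07 and -0.0086 and HOXA10-AS at -0.30 and -0.62 as listed in the authors' deposited tables. Thus the HOXB RNAs were the highest of these in control cells and the HOXA RNAs lay below 0 there.

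Several other described RNAs stood apart from their partner. HIF1A-AS1 (chr14:61681041-61695823, minus strand) overlaps the start of HIF1A, the gene of the transcription factor of low oxygen. In the authors' deposited tables the antisense RNA stood at 1.76 and 2.00, and HIF1A at means of -0.16 and -0.64 over 3 transcripts, all below 0. HAS2-AS1 overlaps the start of HAS2, the gene of a hyaluronan synthase. It had -0.04 in control and -0.52 in knockdown cells, where HAS2 mRNA had -2.70 and -2.82 according to the authors' deposited tables. PCNA-AS1, inside the gene of the sliding clamp of DNA replication, was at 1.01 and 0.26, and PCNA at means of -0.07 and -0.30, from the authors' deposited tables. In each of these 3 pairs the antisense RNA was the higher in both populations. CDKN2B-AS1, also called ANRIL and known to bind Polycomb proteins, had a shared transcript at 0.81 and 0.10 per the authors' deposited tables. Over all its control transcripts the mean was -0.79, so its sign in control cells depends on which transcripts are averaged.

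**Figure D3:**
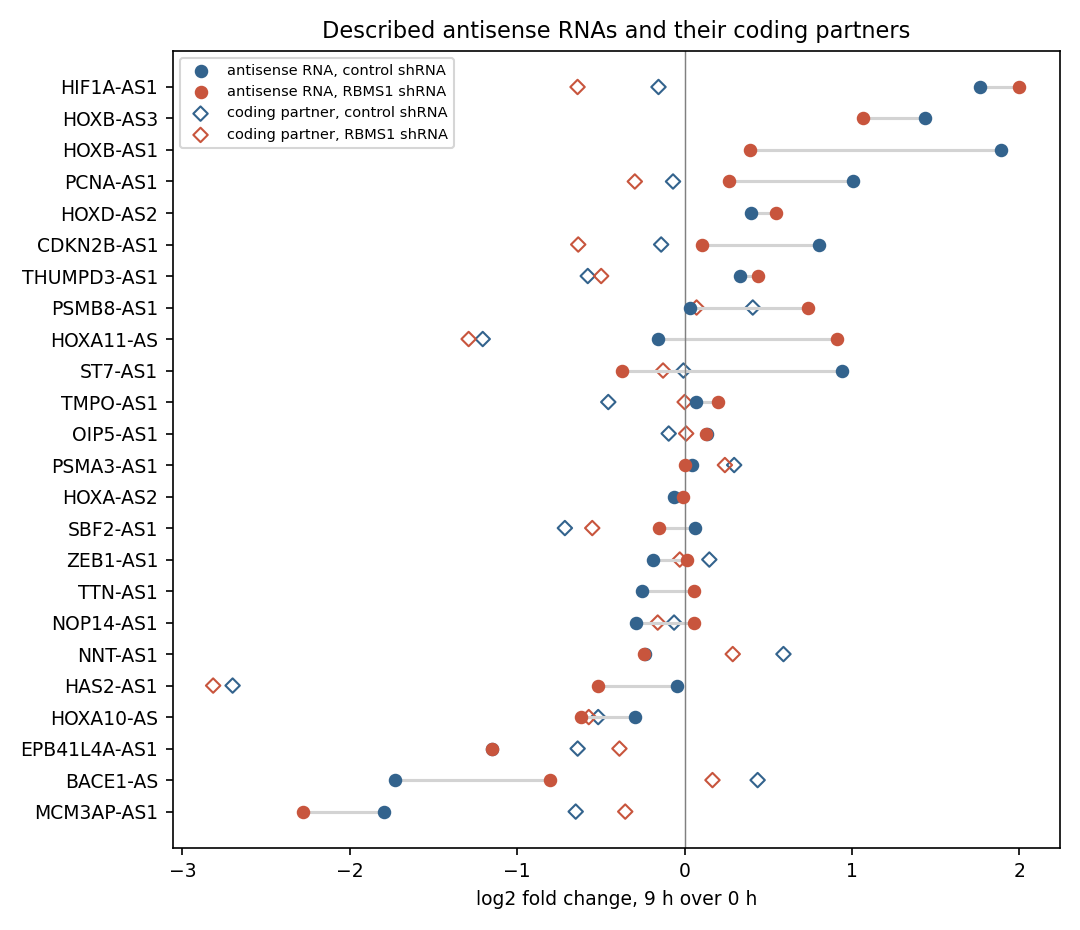
Log2 fold change, 9 h over 0 h (x axis), of the 24 described antisense RNAs listed in both tables (rows, ordered by the mean of both), with filled circles for the antisense RNA and open diamonds for its coding partner where listed, blue for control and red for RBMS1 knockdown cells. HAS2-AS1 lies near 0 while HAS2 lies at -2.70 and -2.82, and BACE1-AS lies below BACE1.

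The coding partner gives each antisense RNA its closest reference, since both values come from the same table. A protein-coding gene named before -AS exists for 322 of the 335 antisense genes, and 208 pairs had both members in both tables, over 207 partners. The antisense value minus the partner value had a median of 0.53 in control cells, with quartiles of -0.29 and 1.14, and of 0.41 in knockdown cells, with quartiles of -0.17 and 1.06. The antisense RNA was the higher of the pair in 137 pairs in control cells (65.9%) and in 141 in knockdown cells (67.8%). It was the higher in both populations in 112 pairs, the lower in both in 42, and of mixed order in 54. The partners had medians of -0.18 in both populations, below those of coding genes as a whole, at -0.08 in both.

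Other long non-coding RNAs did much the same. Each of 205 non-antisense long non-coding genes was set beside the nearest coding gene within 5 kb. The non-coding RNA was the higher in 61% of these pairs in control cells and 62.4% in knockdown cells, with medians of the difference of 0.32 and 0.25. Among the 157 of them on the strand opposite their neighbour, the medians were 0.40 and 0.32.

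Over all 208 antisense pairs taken as 1 set, the 2 values hardly moved together. Pearson's r across pairs was 0.03 in control cells and 0.08 in knockdown cells, and Spearman's rho was -0.0027 and 0.16. By contrast the difference of a pair in control cells and in knockdown cells had an r of 0.56. These are values across genes that share libraries.

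**Figure D4:**
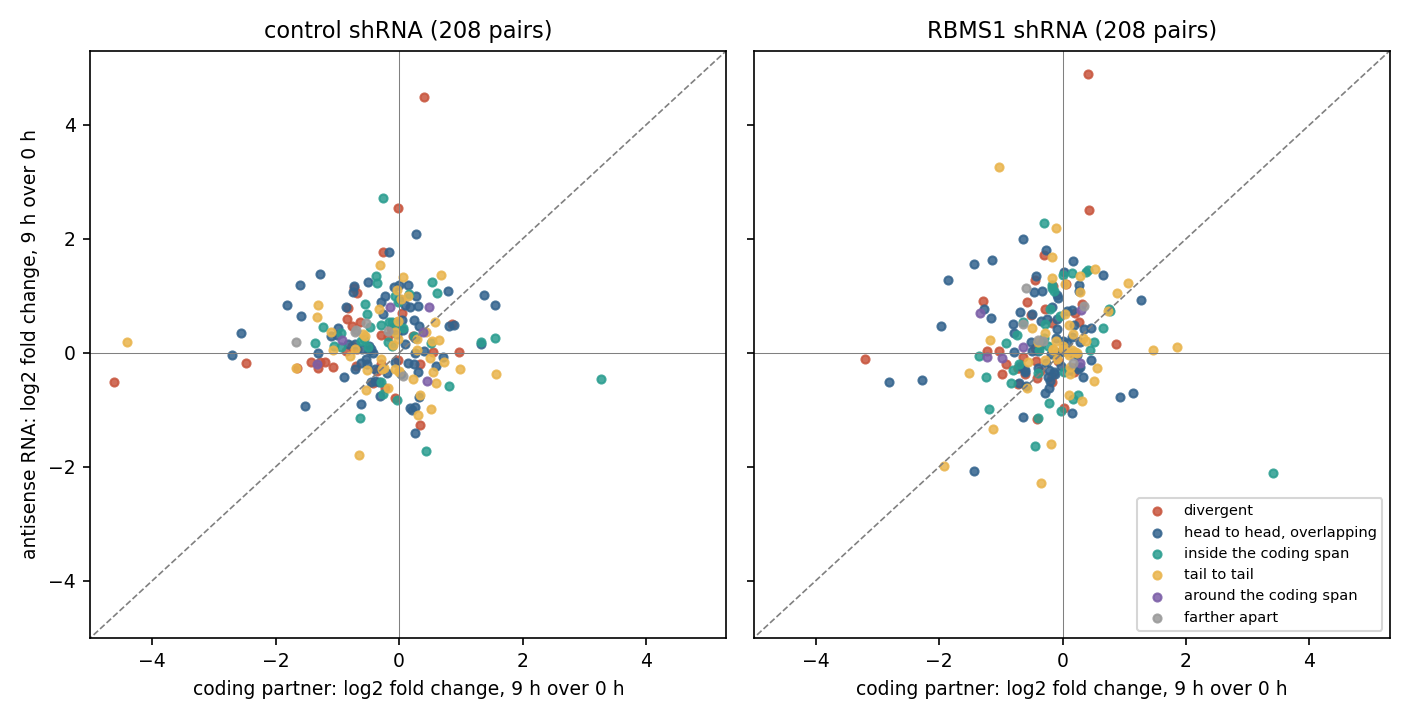
Log2 fold change, 9 h over 0 h, of the coding partner (x axis) and of the antisense RNA (y axis) for 208 pairs in control cells (left) and RBMS1 knockdown cells (right), coloured by how the 2 genes lie to each other, with the dashed line at equal values. More points lie above the line than below it, 137 of 208 on the left and 141 on the right. Spearman's rho is -0.0027 on the left and 0.16 on the right.

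In 38 pairs the antisense RNA stood at least 2-fold above its partner in both populations, and in 5 it stood at least 2-fold below in both. Taking each population alone, 30.8% of the 208 pairs were 2-fold or more above in control and 27.9% in knockdown cells. Of the 205 pairs of other long non-coding genes with their neighbours, 26.8% and 27.8% were. At 2-fold or more below were 9.13% and 6.25% of the antisense pairs, and 9.76% and 8.29% of the others. No count in both populations was made for the others. The mean of a partner can rest on 1 of its transcripts, and the counts of 38 and 5 were repeated with other ways to combine them. The 38 became 35 with the median over transcripts, 31 with the transcript nearest 0 and 35 with all transcripts of each table, of which 35, 28 and 34 were among the 38. The pairs with the largest mean difference included some whose partner was below -1. CEBPB-AS1 (chr20:50184603-50192069, minus strand) had 1.38 and 1.55 as listed in the authors' deposited tables, where CEBPB, the gene of a leucine zipper transcription factor, had -1.28 and -1.43. TGFB2-AS1 (chr1:218344196-218345678, minus strand) stood at 1.19 and 1.27, and the shared transcript of TGFB2, which encodes a growth factor, at -1.61 and -1.86 from the authors' deposited tables. The authors' deposited table of control cells also lists NM_001135599 at 0.78, and with it the TGFB2 mean there was -0.41. ZNF143-AS1 had -0.19 and -0.10, and ZNF143, the gene of a promoter-binding zinc finger protein, means of -2.48 and -3.20 from the authors' deposited tables. These ZNF143 means rest on NM_001282656 at -6.99 and -8.61, while NM_001282657 was at 0.03 and 0.49 and NM_003442 at -0.50 and -1.46, per the authors' deposited tables. Of these 3 partners only CEBPB has a single listed transcript in each table.

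The pairs of RTCA-AS1 and DNMBP-AS1 were also among the highest, at mean differences of 4.28 and 2.77, with partners near 0. IRAG1-AS1, which runs into the gene of a regulator of calcium release, had a mean difference of 3.12, 1.95 in control and 4.28 in knockdown cells. It stood at 0.63 in control and 3.25 in knockdown cells according to the authors' deposited tables, and IRAG1 at means of -1.32 and -1.03. A further IRAG1 transcript, NM_001100163, is at 9.20 in the knockdown table among the authors' deposited values, and with it the difference of the pair there was 0.87.

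The 5 pairs at the lower end in both tables were C1RL-AS1, HMMR-AS1, MCM3AP-AS1, MRPL20-AS1 and TSKU-AS1, of which MRPL20-AS1 is outside the naming rule and was named after its values were seen. With the median over transcripts or the transcript nearest 0, all but HMMR-AS1 remained, and with all transcripts of each table HMMR-AS1 and MRPL20-AS1 did. HMMR, the gene of a hyaluronan receptor active in mitosis, had means of 1.57 and 1.86 from the authors' deposited tables, and HMMR-AS1 had -0.36 and 0.10. These HMMR means rest on NM_001142557, at 7.81 and 9.24 per the authors' deposited tables, and the other 3 transcripts were below 0 in both. C1RL-AS1 had -0.77 and -0.71, and C1RL, which encodes a protease related to complement, 0.32 and 1.14 for its shared transcript from the authors' deposited tables. With NM_001297640, which the authors' deposited table of knockdown cells gives at -8.20, the mean of C1RL there was -3.53 and the order of the pair turned. TSKU had a shared transcript at 0.82 and 3.42 and, for control cells alone, NM_015516 at -2.64, per the authors' deposited tables. BACE1 had 1 shared transcript, at 0.44 and 0.17 per the authors' deposited tables, which makes the difference of the pair -2.17 in control and -0.97 in knockdown cells. Over all listed BACE1 transcripts the means were -0.60 and 3.21. The difference of CD109-AS1 and CD109 was -3.73 in control cells and -0.998 in knockdown cells, with CD109 at means of 3.27 and -0.03 from the authors' deposited tables. The control mean of CD109 rests on NM_001159587 at 6.998, while NM_133493 stood at -0.46 and -0.98, close to CD109-AS1 at -0.46 and -1.02, per the authors' deposited tables.

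The difference within pairs went with how the 2 genes lie to each other in the RefSeq annotation. The 38 divergent pairs, which start within 5 kb of each other and run apart without overlap, had the largest median of the 4 common arrangements in both populations, 0.79 in control and 0.51 in knockdown cells. The antisense RNA was the higher in 29 of these 38 pairs in each population. The 74 pairs that overlap head to head had medians of 0.44 and 0.40, and the 37 with the antisense gene inside the coding span 0.70 and 0.50. The 47 pairs that overlap or face each other tail to tail had medians of -0.01 and 0.12, with the antisense RNA higher in 23 and in 26 of them. No test of this difference between arrangements could be made over samples.

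Of the 4 common arrangements, divergent pairs had the lowest medians in both populations, for the partners and for the antisense RNAs. Antisense RNAs of divergent pairs had medians of 0.03 and 0.0080, and their partners -0.39 and -0.36. In tail-to-tail pairs the antisense medians were 0.05 and 0.07 and those of the partners -0.01 and 0.04. For antisense genes inside the coding span the antisense medians were 0.30 and 0.17 and the partner medians -0.18 and -0.20. Head-to-head pairs had antisense medians of 0.16 and 0.19 and partner medians of -0.18 and -0.21. Divergent pairs share no transcribed span in this annotation. Spearman's rho between antisense and partner values was 0.23 and 0.27 over divergent pairs, and 0.01 and -0.0031 over head-to-head pairs. With the antisense gene inside the coding span it was 0.03 and 0.30, and over tail-to-tail pairs -0.15 and 0.20.

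**Figure D5:**
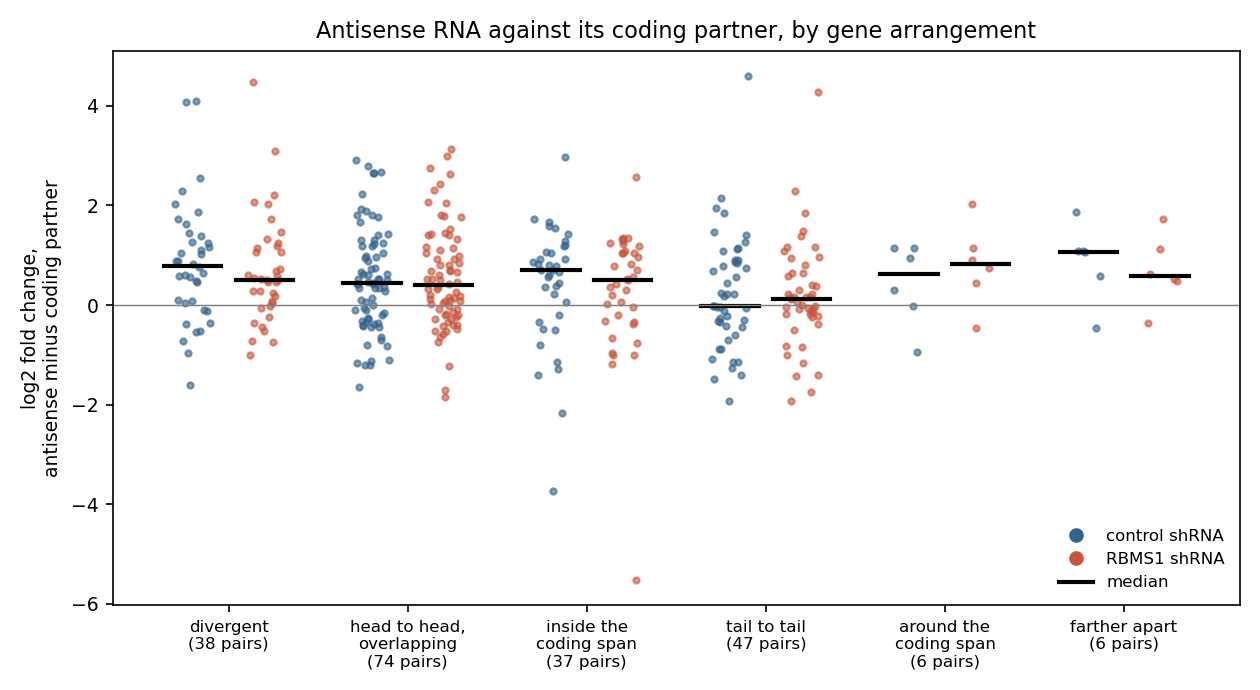
Antisense minus coding partner value on the log2 scale (y axis) for 208 pairs grouped by gene arrangement (x axis, with the number of pairs), blue for control and red for RBMS1 knockdown cells, with a black line at each median. The medians of the divergent pairs are 0.79 and 0.51, and those of the tail-to-tail pairs -0.01 and 0.12.

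The sequence between the start sites of a divergent pair can serve as a promoter in both directions. The median distance between the 2 starts was 158 nucleotides over the 38 pairs, with a range from 13 to 1024. RefSeq promoter windows (GRCh38.p14, 250 bases before to 50 after the start) were matched for 263 of the 335 antisense genes. Among them were 35 of the 45 divergent antisense genes in either table, and 31 of the 38 divergent pairs had a window. A CpG ratio (observed over expected from base composition) of 0.6 or more was present in 49% of 27305 promoters of all genes, in 65.4% of the antisense windows and in 32 of 35 divergent ones (91.4%). For antisense genes inside the coding span the share was 32.8% of 61 windows. The motif TATAAA, searched on both strands, was present in 12% of all promoters, in 5.7% of antisense windows and in 0 of the 35 divergent windows. The motif GGGCGG, the core of the GC box, searched likewise, was in 44.6% of all promoters, 54% of antisense windows and 71.4% of divergent ones. CCAAT was in 35.7%, 31.9% and 28.6% of these. The 27305 promoters include those of genes without a value here, whereas the antisense windows are all of listed genes, so the sets are unlike. No share over listed genes alone was computed. A motif match describes letters in the window and is not a binding site.

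The following 6 stretches show what separates an antisense RNA from its partner in divergent pairs. They were chosen after the values were seen. The first 5 are from the 10 divergent pairs in which the antisense RNA was higher than its partner by 1 or more in both populations. The choice among those 10 followed no rule set beforehand. The last is the divergent pair with the lowest mean difference. Each is read 5′ to 3′ on the strand of the antisense RNA. Capitals run from the start of the coding partner, which is transcribed to the left on the other strand, to the start of the antisense RNA, which is transcribed to the right, with 20 bases in lower case on either side.
RBM26-AS1 and RBM26, chr13:79406235-79406329, plus strand: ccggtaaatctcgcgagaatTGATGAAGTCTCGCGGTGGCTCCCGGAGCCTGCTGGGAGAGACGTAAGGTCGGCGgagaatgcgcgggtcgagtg
ENO1-AS1 and ENO1, chr1:8878666-8878855, plus strand: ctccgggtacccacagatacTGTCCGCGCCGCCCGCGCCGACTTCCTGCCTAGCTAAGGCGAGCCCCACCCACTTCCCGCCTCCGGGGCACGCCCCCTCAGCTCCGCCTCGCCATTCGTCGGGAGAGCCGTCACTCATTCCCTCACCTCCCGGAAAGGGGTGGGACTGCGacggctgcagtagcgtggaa
HOXA11-AS and HOXA11, chr7:27185212-27185428, plus strand: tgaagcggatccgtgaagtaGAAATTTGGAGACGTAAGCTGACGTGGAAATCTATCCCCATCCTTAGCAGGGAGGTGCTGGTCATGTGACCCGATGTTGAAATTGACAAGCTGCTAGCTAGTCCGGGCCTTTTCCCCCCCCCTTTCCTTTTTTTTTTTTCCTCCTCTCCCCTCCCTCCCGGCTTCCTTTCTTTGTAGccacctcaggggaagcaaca
ID2-AS1 and ID2, chr2:8681843-8682076, minus strand: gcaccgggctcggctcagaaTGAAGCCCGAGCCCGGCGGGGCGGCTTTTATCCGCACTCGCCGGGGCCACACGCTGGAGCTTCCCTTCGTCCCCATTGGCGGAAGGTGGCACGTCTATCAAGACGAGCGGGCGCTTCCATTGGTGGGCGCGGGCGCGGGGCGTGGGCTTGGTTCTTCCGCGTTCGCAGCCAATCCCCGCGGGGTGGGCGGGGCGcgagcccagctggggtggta
ZBED5-AS1 and ZBED5, chr11:10858033-10858237, plus strand: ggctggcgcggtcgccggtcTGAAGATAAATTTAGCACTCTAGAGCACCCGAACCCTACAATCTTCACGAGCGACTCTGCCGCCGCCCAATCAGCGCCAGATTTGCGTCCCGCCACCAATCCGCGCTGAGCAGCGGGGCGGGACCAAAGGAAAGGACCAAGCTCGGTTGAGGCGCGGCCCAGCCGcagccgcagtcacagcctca
KTN1-AS1 and KTN1, chr14:55580072-55580227, minus strand: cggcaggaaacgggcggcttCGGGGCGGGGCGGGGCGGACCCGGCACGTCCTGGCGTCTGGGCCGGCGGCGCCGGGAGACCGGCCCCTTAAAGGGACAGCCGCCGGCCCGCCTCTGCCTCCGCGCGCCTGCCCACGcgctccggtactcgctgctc

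The 2 RNAs that start at either end of these stretches had different values after 9 h. RBM26-AS1 starts 54 bases from RBM26, the gene of an RNA-binding protein, and stood at 1.77 and 1.72 where RBM26 had means of -0.26 and -0.30 from the authors' deposited tables. ENO1-AS1 starts 149 bases from the gene of the glycolytic enzyme enolase, and stood at 1.05 and 1.28 where ENO1 had means of -0.67 and -0.44 from the authors' deposited tables. The 2 transcripts behind the ENO1 mean were on either side of 0, NM_001201483 at -1.78 and -1.26 and NM_001428 at 0.43 and 0.37, per the authors' deposited tables. ENO1-AS1 was above both.

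ID2-AS1 and HOXA11-AS lie beside regulators with depleted mRNAs. ID2, which encodes an inhibitor of helix-loop-helix transcription factors, had -1.31 and -1.22, and ID2-AS1 -0.27 and 0.03, in the authors' deposited tables. HOXA11 had -1.21 and -1.29, and HOXA11-AS, which starts 176 bases away, -0.16 and 0.91, in the authors' deposited tables. ZBED5-AS1 stood at 0.47 and 0.89, and ZBED5, a gene derived from a transposase, at means of -0.77 and -0.58, from the authors' deposited tables. The stretch of HOXA11-AS holds 5 CpG dinucleotides and has a GC content of 50.8%, against 26 and 71.1% for that of ID2-AS1, so base composition differed among pairs with a like order of values.

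KTN1-AS1 had the reverse order in the same layout. It stood at -1.27 and -0.34, and KTN1, the gene of the kinesin receptor kinectin, at means of 0.34 and 0.19, from the authors' deposited tables. Its stretch has the highest GC content of the 6, 82.8%, and holds GGGCGG, as do those of ENO1-AS1, ID2-AS1 and ZBED5-AS1.

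The pairs were also grouped by the kind of protein that the partner makes. For 31 antisense genes the partner belongs to a family of transcription factors, and for these the antisense RNAs in both tables (21) had medians of 0.05 and -0.08. Their coding partners had medians of -0.74 and -0.70 over 22 genes, well below those of all coding genes. In the 17 complete pairs the antisense RNA was the higher in 13 pairs in control cells and 15 in knockdown cells. Antisense RNAs of ubiquitin and proteasome genes had medians of 0.27 and 0.62, and all 10 listed in both tables were above 0 in each. Some were barely so, with lowest values of 0.0061 and 0.0038 and lower quartiles of 0.03 and 0.23. Of all antisense genes in both tables, 63.3% were above 0 in control and 61% in knockdown cells. The authors' deposited table of control cells, but not that of knockdown cells, also lists FBXW7-AS1, at -1.48. Of the 9 complete pairs of this group the antisense RNA was the higher in 4 in control cells, with a median difference of -0.25, and in 8 in knockdown cells, with a median of 0.67. Among them were UBE2D3-AS1, inside the gene of a ubiquitin-conjugating enzyme, at 1.03 and 1.42 as listed in the authors' deposited tables, and PSMG3-AS1, beside a proteasome assembly gene. Those of kinases and phosphatases had medians of 0.49 and 0.50 over 7 genes, and their pairs medians of 0.78 and 1.05, with the antisense RNA higher in 6 and in 7 of 7. The authors' deposited values for control cells alone also include MAP3K14-AS1 at -1.32, PRKAR2A-AS1 at -0.77 and MAP9-AS1 at 2.18. Over all its listed transcripts, the pair of CDKN2B-AS1 had a difference of -0.65 in control cells, so its order there turns. Those of 4 mitochondrial genes had medians of -0.60 and 0.41, and the antisense RNA was the higher in 1 pair in control and in 3 in knockdown cells. Those of 5 genes of RNA-binding proteins had medians of 0.18 and -0.13, and in their 4 pairs the antisense RNA was the higher in 4 in control cells and in 1 in knockdown cells. In the last 2 groups the populations thus gave different orders, over few genes. Some differences of the RNA-binding pairs were close to 0, with a lowest value of 0.04 in control cells and a median of -0.04 in knockdown cells. The control mean of DDX11, -4.62, rests on 1 transcript at -8.996 per the authors' deposited tables. Its other transcript, at -0.24, stood above DDX11-AS1 at -0.52. The groups were set by the first letters of the symbol, which does not ensure a shared function, and none has a test.

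Between the populations, antisense RNAs as a group differed by a median close to that of all genes. From each difference, knockdown minus control value, the median of all genes (-0.02) was subtracted, which gives the centred difference. Its median over the 267 antisense genes was 0.01, with quartiles of -0.30 and 0.36. The quartiles were -0.19 and 0.23 over all genes and -0.28 and 0.28 over other non-coding genes. At -1 or below were 23 antisense genes (8.61%), against 4.17% of all genes and 5.86% of other non-coding genes. At 1 or above were 14 (5.24%), against 4.87% of all genes and 6.74% of other non-coding genes. Of 108 LINC genes, 10.2% lay at -1 or below and 9.26% at 1 or above. Of 85 -DT genes, 5.88% and 1.18% did. The difference of the antisense RNA minus that of its partner had a median of 0.00071 over 208 pairs, with 104 pairs above 0.

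The lowest centred difference was that of HIPK1-AS1 (chr1:113924001-113929525, minus strand), which overlaps the start of a protein kinase gene. It stood at 1.06 in control cells and -2.07 in knockdown cells according to the authors' deposited tables, and its centred difference was -3.12. HIPK1 itself had means of -0.74 and -1.43 over 3 coding transcripts per the authors' deposited tables. They rest on NM_198269, at -2.22 and -5.13, and the other two lay between -0.07 and 0.74 per the authors' deposited tables. DCST1-AS1 (-2.68), MYL12-AS1 (-2.26), RORA-AS1 (-2.16) and ATP2A1-AS1 (-1.97) came next by centred difference. RORA, a nuclear receptor gene, had -1.31 and -1.13 where RORA-AS1 had 0.84 and -1.34 as listed in the authors' deposited tables. PSMG3-AS1 was above 0 in both populations, at 2.54 and 0.69 according to the authors' deposited tables, with a centred difference of -1.83. KCTD21-AS1 (-1.71) and IQCH-AS1 (-1.53) closed the 8 lowest. For DCST1-AS1, MYL12-AS1, ATP2A1-AS1 and IQCH-AS1, further transcripts listed in 1 table change the mean. That of DCST1-AS1 in control cells goes from 1.12 to -0.09 with them, and that of MYL12-AS1 in knockdown cells from -0.93 to 0.12. ATP2A1-AS1 had means of -0.31 and -0.15 over all its transcripts, so that its difference turns sign.

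The highest centred difference was that of PAXIP1-AS2 (chr7:154928517-154949490, plus strand), which runs into the gene of a protein of DNA damage signalling. It stood at -0.62 and 2.18 per the authors' deposited tables. Its centred difference was 2.82, while PAXIP1 had -0.18 and -0.11. IRAG1-AS1 followed with 2.64 and RNF207-AS1, beside a RING finger gene, with 2.01. FOXD3-AS1 (1.83), BBOX1-AS1 (1.79), TM4SF19-AS1 (1.76) and FAM222A-AS1 (1.73) were next by centred difference. Of these, FAM222A-AS1 had 2 shared transcripts with control values 7.47 apart, so its mean is a poor summary. FOXD3-AS1 had a further control transcript that took its mean there from -1.29 to 1.96, and with it the order of the populations turns.

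RBMS3-AS1 closed the 8 highest with a centred difference of 1.73. It lies inside RBMS3, a relative of RBMS1, on the other strand (chr3:29926811-29934156, minus strand), and stood at 0.21 and 1.93 as listed in the authors' deposited tables. RBMS3 mRNA was not listed in both tables, so the pair has no difference.

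The motif ATATA is an A- and U-rich sequence of the kind RBMS proteins bind. Of the 416 transcripts 349 were matched to a GENCODE release 29 transcript, 261 of them in both tables. The 127 that hold ATATA on their own strand had a median centred difference of 0.02 and the 134 without it -0.01. At -1 or below lay 8 of the 127 (6.3%) and 17 of the 134 (12.7%), and at 1 or above 8 (6.3%) and 10 (7.46%). No share over all transcripts was computed. By gene, 4.17% of all genes and 5.86% of other non-coding genes lay at -1 or below, and 4.87% and 6.74% at 1 or above. Another A- and U-rich motif, ATTTA, gave a wider split at the lower end. At -1 or below lay 5.49% of the 164 transcripts with ATTTA and 16.5% of the 97 without it. At 1 or above lay 7.93% and 5.15%, and the medians were 0.03 and -0.02. Neither split was tested. Lengths with and without ATTTA were not compared, nor was its share in other non-coding transcripts computed. Holders of ATATA are longer, with a median of 2031 nucleotides against 796. Among transcripts of 500 to 2000 nucleotides, ATATA was in 34.8% of 161 antisense and in 48.3% of 317 other non-coding transcripts.

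The matched antisense transcripts were mostly spliced. Their median length was 1035 nucleotides, their median exon number 3 and their median GC content 49.2%. The 181 with 3 or more exons had medians of 0.17 in control and 0.22 in knockdown cells, the 64 with 2 exons 0.06 and -0.03, and the 16 with 1 exon -0.16 and -0.20. Length had a Spearman's rho of -0.17 with the control value and of -0.13 with the knockdown value, across transcripts. Transcripts with and without exonic overlap with the partner on the opposite strand had similar medians. The 145 transcripts with such overlap had medians of 0.11 and 0.07, and the 93 without it 0.15 and 0.10.

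Transcripts of 1 antisense gene could differ as much as genes did. In the 34 genes with more than 1 transcript in both tables the median range among transcripts was 0.91 in control and 1.02 in knockdown cells. In 22 of the 34 the lowest and the highest control transcript kept their order in knockdown cells. The range was 1 or more in 14 genes in control cells. In 11 of these 14 the lowest and the highest control transcript had the same order in knockdown cells, and in 9 they were again 1 or more apart. No count of this kind was made for genes of other classes.

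VASH1-AS1 and ZNF436-AS1 had transcripts 1 or more apart in the same order in both populations, and were named after their values were seen. For VASH1-AS1, beside the gene of the angiogenesis inhibitor vasohibin, the authors' deposited tables give NR_104184 at -0.60 and -0.91 and NR_104183 at 2.13 and 3.53. For ZNF436-AS1 the authors' deposited tables give NR_033690 at -0.44 and -0.14 and NR_033691 at 1.38 and 2.99. In both genes 1 transcript was below 0 and the other above 1 in each population. Such splits rest on how reads shared by transcripts were divided between them, and the depth behind each transcript is unknown.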

How the data were processed

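Total RNA depleted of ribosomal RNA was sequenced from 8 SW480 libraries (ScriptSeq kit), per the labels' protocols. Per the submitters' processing notes, STAR 2.5, Cufflinks, Cuffdiff and the build hg38 were used, with no role given for any. The authors deposited 2 tables of log fold changes by RefSeq transcript, 21328 in control and 20474 in knockdown cells, per the file headers. The deposited values were read as log2 because Cuffdiff writes log2, and as 9 h over 0 h because MYC, FOS and JUN, mRNAs of rapid turnover, are negative in both; the headers state neither. Depth is unknown, scaling is not given in the sources used here, and a value from few reads looks like any other.

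Of 22468 accessions, 22132 took their symbol from the RefSeq gene table (GRCh38.p14) and 212 from GENCODE release 29, and 124 without one were left out. A gene's value is the mean over its transcripts. Counts and medians of a single table use all transcripts listed there, and differences, pairs and named values use transcripts in both. Partner values use coding (NM_) rows. Arrangements come from RefSeq gene spans. Computation used Python 3.11.15, pandas 2.3.3, numpy 2.4.6 and scipy 1.17.1, and was tested on simulated data. Named were the described RNAs, the 8 lowest and 8 highest by mean, the 8 smallest and 8 largest differences, the 6 lowest and 6 highest pairs, and the 2 extremes at each end of each single-table set. Members, lists and rules were chosen with earlier results of these data known.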

Additional observations from a re-analysis of the deposited data

How the results depend on the processing

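No paired analysis was possible because the libraries of a group are already combined into 1 deposited value per transcript, and for the same reason no library could be left out. Of 153 values recomputed under alternatives, 128 stayed within 1.5 times the count or within the 95% order-statistic interval of the median, and 23 moved. The medians of the centred difference and of the difference of differences had intervals that held 0. Their changes of sign, down to -0.0024 and -0.10, were therefore counted among the 128 and the 23. The other 2 values turned sign from medians whose interval over genes excluded 0. Those 2 were the antisense medians relative to ribosomal protein mRNAs, -0.25 in control and -0.17 in knockdown cells, because the scaling shifts every value by 0.41 and 0.38. The same scaling gave 45 genes at -1 or below and 25 at 1 or above in control cells, and 30 and 30 in knockdown cells. With a size of 2 in place of 1, there were 1 gene at the lower and 13 at the upper end in control cells, 2 and 12 in knockdown cells, and 4 and 3 for the centred difference, where the stricter size leaves fewer by construction.

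For pairs, keeping only the 44 whose spans do not overlap gave medians of 0.85 and 0.53 and a median difference of differences of -0.10, with 34, 34 and 17 pairs above 0 (77.3%, 77.3% and 38.6%, against 65.9%, 67.8% and 50% of all pairs), and the cause was not tested. Of these 44, 12 were 1 or more above and 0 were 1 or more below the partner in both populations. With 1 listed transcript in each member, 96 pairs remained, of which 65, 62 and 44 were above 0 and 19 were 1 or more above the partner in both populations. Without tail-to-tail pairs, 2 were 1 or more below it in both. Over all alternatives the pair medians ranged from 0.43 to 0.85 in control and from 0.24 to 0.53 in knockdown cells, and that of the antisense centred difference from -0.0024 to 0.05. Using all transcripts of each table, or leaving out tail-to-tail pairs, was chosen after seeing the data, as were all repeats of the counts of pairs 1 or more above or below the partner in both.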
